A study of Mus musculus with 10 samples.

Results

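Imprinted genes are read from the maternal or the paternal chromosome alone, and 10 of them, H19, Igf2, Peg3, Peg10, Mest, Dlk1, Meg3, Grb10, Plagl1 and Igf2r, were followed here through maps of H3K27me3. They were chosen by symbol among the 37310 genes of the GENCODE annotation of mm9, and each symbol matched 1 gene. For each gene, the bases inside H3K27me3 peaks were counted from 5 kb upstream of its annotated 5′ end to its other end. The maps came from ChIP-seq of 5 cell lines, with 1 peak list per line. The parental line is a B-cell lymphoma line from C57BL/6J mice that carry the Eμ-Myc transgene, which places c-Myc under an immunoglobulin heavy chain enhancer, and lack Cdkn2a (Cdkn2a-/-). R100, R500, R1000 and R4000 are sub-clones of that 1 line, selected in mafosfamide, which alkylates DNA, and harvested from 100 nM on day 10, 500 nM on day 18, 1000 nM on day 23 and 4000 nM on day 37. The days are those of the study's dosing scheme, and its methods give a shorter period in all. All 5 lines share both alterations, and chromatin was taken from cells growing without the drug.

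Imprinting is set in the germ line by DNA methylation of control regions, and the methylated copy is recognised after fertilisation by the zinc finger protein ZFP57. Many of these genes steer fetal growth and are shut down in most adult tissues. H3K27me3, the trimethyl mark that Polycomb repressive complex 2 places on histone H3, is found at CpG-rich promoters of silent genes, and at several imprinted loci it lies on the silent copy. The mice are inbred and the lists hold no alleles, so the parental origin of a mark was not analysed here.

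A deposited list gives the position of each peak on a grid of 50 bp and no height, count or p-value, so a value below is a length of sequence inside peaks and not a level of the mark. The parental list held 10778 peaks and those of R100, R500, R1000 and R4000 held 25180, 21888, 9595 and 6820, and the covered lengths of the latter were 3.09, 2.78, 0.988 and 0.658 times the parental length. The depth behind each list is unknown, and whether depth takes part in these differences was not tested. With 1 list per line there was no replicate error and no test between lines, and the intervals given on shares cover counting within a list alone. As a look at the cell type, promoters of 8 B-cell genes were free of peaks in the parental line and in R500, and 1 was covered in each of R100 (Ebf1), R1000 (Pax5) and R4000 (Pax5). Of 5 T-cell promoters, 0 were covered in the parental line, R1000 and R4000 and 1 in each of R100 (Cd4) and R500 (Cd3g). Of 5 myeloid promoters, 1, 2, 1, 1 and 0 were covered from the parental line to R4000, namely Cd14, joined by Lyz2 in R100. B-cell and T-cell promoters alike had no parental peak, so these counts do not tell the cell type. The share over all promoters was not computed. No peak touched Cdkn2a in any list, but a missing peak says nothing of whether the gene is there. All coordinates are in mm9, counted from 1.

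Stretches of sequence at some of the members' peaks are printed here as examples. The stretch of Mest below lay inside peaks of all 5 lists, just upstream of the start of the Mest-001 transcript. Capitals mark TGCCGC, the hexamer bound by ZFP57 when methylated, on either strand.

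Mest, chr6:30687601-30687850, + strand: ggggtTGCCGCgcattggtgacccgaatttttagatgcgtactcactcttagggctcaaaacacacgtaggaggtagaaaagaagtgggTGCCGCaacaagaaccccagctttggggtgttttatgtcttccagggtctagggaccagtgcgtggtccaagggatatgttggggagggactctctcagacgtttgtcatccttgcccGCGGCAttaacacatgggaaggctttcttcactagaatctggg

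The next stretch is the peak of R4000 just upstream of the Igf2-003 transcript start, and capitals mark the bases that all 5 lists covered. It is followed by the 250 bases upstream of Dlk1, with capitals for the bases inside a peak of R100, which ran on into the gene.

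Igf2, chr7:149847251-149847350, - strand: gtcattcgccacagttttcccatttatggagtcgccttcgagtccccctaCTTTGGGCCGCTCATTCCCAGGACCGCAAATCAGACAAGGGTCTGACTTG

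Dlk1, chr12:110690783-110691032, + strand: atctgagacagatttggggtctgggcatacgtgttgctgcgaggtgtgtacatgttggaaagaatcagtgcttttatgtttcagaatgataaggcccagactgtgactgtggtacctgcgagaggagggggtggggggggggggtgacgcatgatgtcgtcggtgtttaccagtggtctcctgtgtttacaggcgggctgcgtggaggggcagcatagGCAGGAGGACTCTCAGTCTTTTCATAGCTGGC

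The last pair comes from genes that were covered in 1 list, the wider R500 peak upstream of H19 and the R100 peak in an intron of Igf2r. Capitals mark CpG, the dinucleotide that carries DNA methylation.

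H19, chr7:149767201-149767400, - strand: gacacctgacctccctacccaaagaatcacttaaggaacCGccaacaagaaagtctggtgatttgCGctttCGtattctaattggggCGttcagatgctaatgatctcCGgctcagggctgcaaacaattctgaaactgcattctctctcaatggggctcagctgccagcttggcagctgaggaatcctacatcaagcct

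Igf2r, chr17:12934451-12934500, - strand: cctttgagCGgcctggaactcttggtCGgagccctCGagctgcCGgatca

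The 10 genes fell into 4 sets. Mest and Igf2 were covered in all 5 lists. Dlk1 was covered in the 4 resistant lines and not in the parental line, while H19, Grb10 and Igf2r each had a small covered stretch in 1 resistant line. Peg3, Peg10, Meg3 and Plagl1 had no covered base in any list. Among all annotated genes, 5.24% were covered in all 5 lists, 3.08% in 4, 12.1% in 1 and 68.4% in none. All annotated genes have shorter windows than the members, and these shares were not computed for genes of like window.

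**Figure D1:**
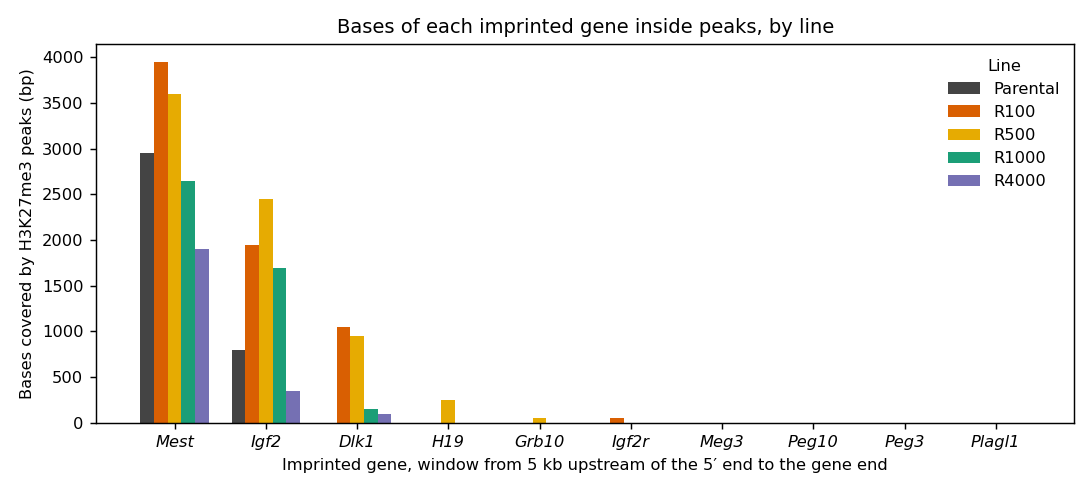
Bases of each gene's window inside H3K27me3 peaks (vertical axis, bp) for the 10 imprinted genes (horizontal axis), with 1 bar per line and no replicates. Mest and Igf2 have bars in all 5 lines, Dlk1 rises to 1050 bp in R100 from 0 in the parental line, and 4 genes have no bar.

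Mest, a paternally expressed gene for a putative hydrolase of the mesoderm, held the most marked sequence of the 10. Its window on chromosome 6 (gene at 30673547 to 30698457, + strand) had 2950 covered bases in the parental list. The counts for R100, R500, R1000 and R4000 were 3950, 3600, 2650 and 1900. R100 and R500 thus lay above the parental value and R1000 and R4000 below it. Among the genes with any covered base, those with more covered bases than Mest made up 1.6% in the parental list, and 1.77%, 2.62%, 1.67% and 1.99% in the 4 resistant lists in order of dose. When peaks less than 1000 bp apart were joined, R1000 moved to 250 bp above the parental line, so the direction for R1000 depends on how peaks are split.

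Most of this sequence sat at an internal promoter. In the parental line and in R500, 1 peak of 2350 bp ran over chr6:30686551-30688900, and in R100 a peak of 2400 bp ran over chr6:30686451-30688850. These peaks enclose the starts of 5 transcripts, Mest-001, Mest-005, Mest-202, Mest-008 and Mest-201, the first of them at 30688050, 14503 bp downstream of the gene's 5′ end. This promoter is known as the germline imprinted region of Mest, methylated on the maternal copy. Within 500 bp on both sides of the Mest-001 start, 1001 of 1001 bases were covered in the parental line, R100 and R500, 950 in R1000 and 601 in R4000. At the gene's annotated 5′ end the same window had 0 covered bases in all 5 lists.

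In the lines with the highest doses the block was in pieces. R1000 covered 2000 of the 2350 bp in 2 pieces, and R4000 covered 1650 bp in 2 pieces, of 1300 and 350 bp. The gap of 400 bp between the R4000 pieces, chr6:30687851-30688250, contains the Mest-001 start and 34 of the block's 121 CpG. The gap of R1000, chr6:30687451-30687600, was 150 bp long, lay upstream of the start and held 3 CpG. Across the window, 4700 bp were covered in at least 1 list, 1350 bp in all 5, 1750 bp in resistant lines alone and 50 bp in the parental line alone.

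**Figure D2:**
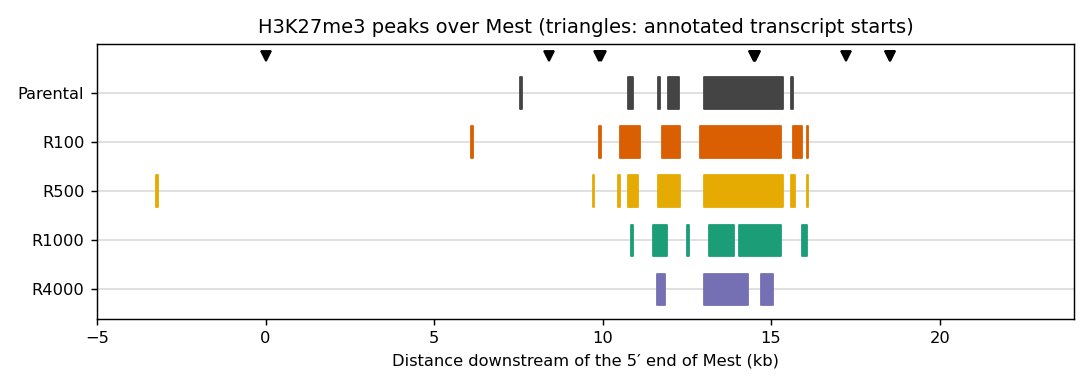
Peaks over Mest in each line (boxes, 1 row per line) by distance from the gene's 5′ end in kb, with triangles at annotated transcript starts. All 5 rows carry a block around the starts at 14503 bp, which is whole in the parental line, R100 and R500 and broken in R1000 and R4000, and no row has a peak at 0.

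The block was rich in the ZFP57 hexamer. TGCCGC occurred 12 times on either strand in the parental peak (5.11 per kb), against 0.301 per kb over all parental peaks and 1.21 per kb over the 6 parental peaks at least 2000 bp wide. Both sets include the Mest peak itself, and the median of the 6 wide peaks was 2 hexamers. The hexamer contains a CpG. The ratio of observed to expected CpG was 0.687 in the block, against a median of 0.285 over parental peaks. Of peaks at least 2000 bp wide, 1 of 6 in the parental list, 1 of 92 in R100 and 1 of 92 in R500 held 12 or more, and in each list it was the Mest peak. The number 12 is that of Mest itself and was set after the sequence had been read, so this is a description. All 12 lay inside the pieces of R1000, whereas 7 lay inside those of R4000, with 4 in the gap at the start and 1 beyond the last piece. In the 250-bp stretch printed above there were 3, and 10.2% of the 3322 peaks of that width held at least 1.

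Igf2, the paternally expressed growth factor that drives fetal growth, came next. Its window on chromosome 7 (gene at 149836673 to 149852721, - strand) had 800 covered bases in the parental list. R100 had 1950, R500 2450, R1000 1700 and R4000 350. R100, R500 and R1000 lay above the parental line, at 2.44, 3.06 and 2.12 times its value, and R4000 lay below it, at 0.438 times. Genes that exceeded Igf2 made up 16% of the covered genes in the parental list, and 7.05%, 5.4%, 4.26% and 23.8% of those in the resistant lists in order of dose.

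The peaks of Igf2 also clustered at an internal start, that of Igf2-003, 5511 bp downstream of the 5′ end. The parental line had 4 narrow peaks there, of 100 to 200 bp. In their place R500 had 1 peak of 1500 bp (chr7:149845851-149847350), R1000 had 1 of 1100 bp (chr7:149846201-149847300) and R100 had 1 of 900 bp (chr7:149846101-149847000) with narrow peaks beside it. R4000 had peaks of 150 and 100 bp. Within 500 bp of the Igf2-003 start the covered bases were 350, 491, 641, 591 and 100, in the order parental line, R100, R500, R1000 and R4000. All 5 lists shared 100 bp, in 2 stretches of 50 bp. Igf2as, an antisense gene at the same place, overlapped all 6, 5 and 3 Igf2 peaks of the parental line, R1000 and R4000 and 6 of 8 in both R100 and R500, so these peaks cannot be given to Igf2 alone.

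An intron of Igf2 also holds Mir483, a microRNA gene at chr7:149840829-149840901. Its 73 bases lay inside a peak of 250 bp in R100 and outside the peaks of the other 4 lists. The mature forms, from RefSeq with the GRCm38.p6 build, are given with the seed (bases 2 to 8) in capitals, since the seed sets which messages a microRNA pairs with.

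miR-483-5p: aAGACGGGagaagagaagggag

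miR-483-3p: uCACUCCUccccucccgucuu

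Mir335, in Mest, and Mir675, in H19, had 0 covered bases in all 5 lists.

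Dlk1, a paternally expressed transmembrane protein of the Notch ligand family that holds back differentiation, was the member with no parental peak and peaks in every resistant line. On chromosome 12 (gene at 110691033 to 110701546, + strand) its window had 0 covered bases in the parental list, against 1050 for R100, 950 for R500, 150 for R1000 and 100 for R4000. The nearest parental peak was 133.8 kb away. Unlike at Mest and Igf2, a peak at Dlk1 spanned the 5′ end of the gene, in R100 alone. R100 had a peak from 32 bp upstream to 317 bp downstream, R500 one from 118 to 367 bp downstream and R4000 one from 268 to 367 bp downstream. The peak of R1000 lay further in, from 1418 to 1567 bp. R100 and R500 shared 400 bp, and no base was common to all 5 lists. With peaks under 150 bp left out, R4000 had none.

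**Figure D3:**
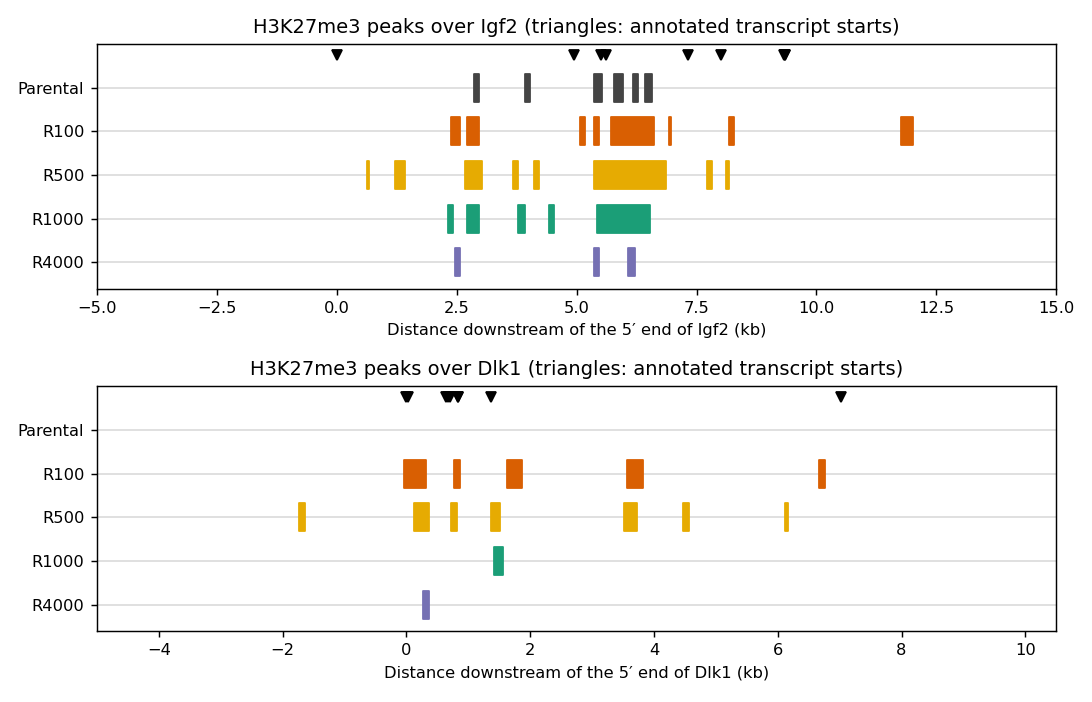
Peaks over Igf2 (upper panel) and Dlk1 (lower panel) in each line, by distance downstream of the gene's 5′ end in kb, with triangles at annotated transcript starts. Igf2 peaks gather near 5.5 kb in all 5 lines, and Dlk1 has no parental peak, 5 in R100, 7 in R500 and 1 each in R1000 and R4000.

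The maternally expressed members had little marked sequence. H19, the noncoding RNA that shares its control region with Igf2 and lies 72.6 kb from it, was covered over 250 bp in R500 and 0 bp in the other 4 lines. The R500 peaks lay 2853 to 3352 bp upstream of the start, in the stretch where the H19 and Igf2 control region lies, and held no match to GGNGGCAG, the core of the motif of the insulator protein CTCF. Grb10, an adaptor that dampens insulin and growth factor signalling, had 1 intronic peak of 50 bp in R500 (chr11:11847101-11847150) and 0 bp elsewhere. Igf2r, the receptor that clears Igf2 from the cell surface, had 1 intronic peak of 50 bp in R100, about 28 kb from its start, and 0 bp elsewhere. This peak, chr17:12934451-12934500, lies inside the overlapping noncoding gene Airn, close to the annotated start of Airn at 12934177 (+ strand). It thus cannot be given to Igf2r alone. A peak of 50 bp is 1 bin of the grid, so the peaks of Grb10 and Igf2r were lost with peaks at least 150 bp wide. They were also lost with lists of equal number, which keep the widest peaks of each list, so their width fixed both losses. In both alternatives H19 had 200 bp in R500. The 3 genes had 0 bp in the parental line, R1000 and R4000.

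Meg3, the maternally expressed noncoding RNA that neighbours Dlk1 at 77.7 kb, was covered over 0 bp in all 5 lists. Its nearest peak was 27 to 222.0 kb from the window, depending on the list. Dlk1 thus had covered bases in the resistant lines where Meg3 had none.

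Peg10, a gene of retrotransposon origin needed by the placenta, Peg3, a large zinc finger protein, and Plagl1, a zinc finger factor that slows growth, are paternally expressed and were also at 0 bp in all 5 lists. Their nearest peaks were 23.9 to 1540.7 kb away for Peg10, 542.9 to 1642.5 kb for Peg3 and 61.2 to 690.5 kb for Plagl1. Counted by expressed copy, the 6 paternally expressed members held 3750 covered bases in the parental list and 6950, 7000, 4500 and 2350 in the resistant lists in order of dose. The 4 maternally expressed members held 0 in the parental list and then 50, 300, 0 and 0. The 50 bp of R100 are the Igf2r peak that also lies in Airn. Mest alone made up 2950 of the 3750 parental bases. The split by expressed copy was not tested. It was also not made for the other imprinted genes below, several of which had peaks.

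In the parental list 2 members had a peak. R100 marked 4 of them, R500 marked 5, and R1000 and R4000 marked 3 each. The 95% Wilson interval of the share was 5.67 to 51.0% for 2 of 10, 16.8 to 68.7% for 4, 23.7 to 76.3% for 5 and 10.8 to 60.3% for 3. Over all annotated genes the share was 9.72% for the parental list and 25%, 20.2%, 12% and 10.4% for the resistant lists in order of dose. The members' windows are long, with a median of 30720.5 bp against 10361.5 bp. Over the 19624 genes whose windows fell in the members' range, 7615 to 113176 bp, the shares were 13.2%, 36.2%, 28.4%, 16.8% and 14.6%. Each of these lies within the members' interval, so a difference in this share from genes of like window was not detectable with 10 genes. The members were picked by symbol and are no random draw, so the interval is a guide only. By bases, peaks covered 0.912, 1.7, 1.78, 1.09 and 0.572% of the members' windows, from the parental line to R4000. For genes of like window the values were 0.21, 0.712, 0.632, 0.235 and 0.163%. For the 46 other imprinted genes described below they were 0.0863, 0.291, 0.248, 0.0711 and 0.0288%, lower than for genes of like window in every list. Mest and Igf2 held most of the members' bases in every list, and the differences between these sets were not tested.

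**Figure D4:**
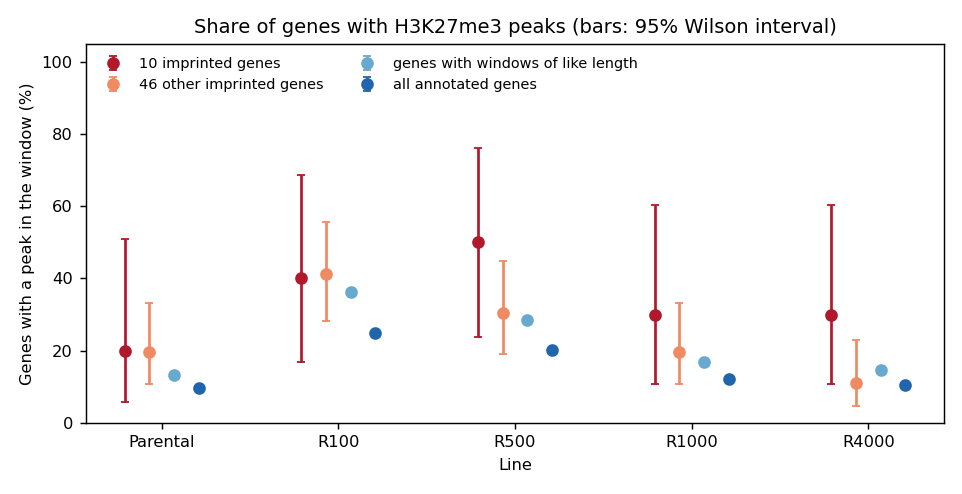
Share of genes with a peak in the window (vertical axis, %) in each line (horizontal axis) for the 10 imprinted genes, 46 other imprinted genes, genes with windows of like length and all annotated genes. Points are shares in 1 list and bars are 95% Wilson intervals, and the intervals of the 10 genes, such as 16.8 to 68.7% in R100, take in the shares of genes of like window.

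Against the parental line, more bases were covered at 4 members for R100, 5 for R500, 2 for R1000 and 1 for R4000, where the shares of all genes with more were 23.9%, 19%, 8.69% and 6.44%. Fewer covered bases were seen in 0, 0, 1 and 2 members, where the shares of all genes were 1.92%, 2.05%, 5.55% and 7.12%. Windows of all genes are shorter than those of the members. Of the 19624 genes of like window, 6810, 5263, 2391 and 1784 had more in R100, R500, R1000 and R4000. In the same order, 474, 533, 1501 and 1906 of them had fewer. The member with fewer in R1000 was Mest, those with fewer in R4000 were Mest and Igf2, and the member with more in R4000 was Dlk1. The median of covered bases over the members was 25 bp in R500 and 0 bp in the other 4 lists, and over all genes it was 0 bp in each list.

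Summed over the 10 members, 3750 bp were covered in the parental list. The resistant lists held 7000, 7300, 4500 and 2350 bp in order of dose, or 1.87, 1.95, 1.2 and 0.627 times the parental sum. Over the windows of all genes the ratios were 3.31, 2.95, 1.12 and 0.783. Without Mest the ratios of R100, R500 and R1000 were 3.81, 4.62 and 2.31, and that of R4000 was 0.562, a comparison chosen after the values had been seen. The parental sum is then the 800 bp of Igf2 alone.

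In the 250 bases upstream of the 5′ end, the members had a median GC content of 57.6% and a ratio of observed to expected CpG of 0.538, against 49.6% and 0.331 over the 37307 promoters read. Igf2r, with the highest CpG ratio of the 10 (0.999), and Peg10 (0.747) had no peak near the 5′ end, while Mest (0.0661) and Igf2 (0.0637) were CpG-poor there and had their peaks at internal starts. The parental block of Mest had a CpG ratio of 0.687. Over all peaks the median ratio ran from 0.285 in the parental line to 0.49 in R4000. TGCCGC was present upstream of 3 members, Peg10, Meg3 and Plagl1, none of which had a peak, and in 7.74% of all promoters. GCCATNTT, the motif of YY1, and GGNGGCAG were present in 0 of the 10 and in 4.4% and 9.76% of all promoters. Both strands were read for each motif, and TGCCGC on one strand can share letters with GGNGGCAG on the other.

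Of 48 further imprinted genes, 46 were found in the annotation, with a median window of 41347 bp. A peak was present at 9 of them in the parental list and at 19, 14, 9 and 5 in the resistant lists in order of dose, and 26 were covered in no list. These shares were 19.6%, 41.3%, 30.4%, 19.6% and 10.9%, and 56.5% in no list. Over genes with windows in the members' range the shares were 13.2%, 36.2%, 28.4%, 16.8% and 14.6%. Some windows of the 46 fall outside that range. Over all annotated genes the shares were 9.72%, 25%, 20.2%, 12% and 10.4%, and 68.4% in no list. Their summed bases were 2850, 9600, 8200, 2350 and 950 bp, or 3.37, 2.88, 0.825 and 0.333 times the parental sum in the resistant lines, with bases of overlapping windows counted for each gene. The 3 covered in all 5 lists were Rasgrf1, Klf14 and Kcnq1. Rasgrf1, an exchange factor for Ras, had 650 covered bases in the parental list, with 2400 for R100, 2000 for R500, 550 for R1000 and 50 for R4000. R100 and R500 thus lay above the parental value and R4000 below it, as for Igf2, while R1000 lay below it.

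Klf14, a transcription factor gene without introns that lies 207.6 kb from Mest, was covered over 800 bp in the parental list and over 1100, 1150, 600 and 700 bp in the resistant lists in order of dose, which put R1000 and R4000 below the parental line as for Mest. Asb4, a subunit of a ubiquitin ligase, was covered over 650, 700, 850, 450 and 0 bp in that order. Phlda2, which restrains growth of the placenta, had 0, 950, 500, 400 and 50 bp, the order seen for Dlk1. Ascl2, a transcription factor of the trophoblast, had 250, 700, 550, 150 and 0 bp. The potassium channel gene Kcnq1, in the same domain of chromosome 7, had 150, 250, 50, 50 and 100 bp.

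Over all genes, the patterns nearest to those of the 3 most covered members, by the summed absolute difference over the 5 lists, came from other places. For Mest they were Mir183 on the same chromosome, with 2450, 3287, 3637, 2437 and 1937 bp (a summed difference of 1450 bp), and Nfatc1 (1540 bp). For Igf2 they were Tmem180, with 1050, 2050, 2200, 1750 and 350 bp (650 bp), and Mlxipl (750 bp). For Dlk1 they were A930011O12Rik, with 0, 1050, 950, 50 and 100 bp (100 bp), and Slco5a1 (150 bp). None of the 6 was on the list of imprinted genes, and the likeness rests on 5 values.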

How the data were processed

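H3K27me3 ChIP-seq of 5 lines was analysed. Samples of the same lines for DNA methylation by RRBS were not analysed here. The authors precipitated chromatin with an antibody to H3K27me3, sequenced 50-bp reads on an Illumina HiSeq 2000 and called peaks against input libraries in tiling windows with Poisson statistics. The submitters' processing notes name Bowtie and mm9. The authors deposited 1 list of peak positions per line (chromosome, start, end). Its threshold and the pooling of replicates are not given in the sources used here. Lines were assigned from the sample labels. Every peak is entered 2 times in the lists of R100 and R500 and was counted once.

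Counts of covered bases used numpy 2.4.6 and pandas 2.3.3 under Python 3.11.15, and Wilson intervals were computed at 95%. The counting step was tested on simulated data, where 0 of 2000 windows differed from a base-by-base count. Genes and genome sequence were of NCBIM37, which is mm9, and microRNA sequences came from RefSeq. Figures were drawn with matplotlib 3.10.9. No test was made, since each line has 1 list.

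The members and gene lists were chosen with earlier results of these data known. Named genes are all members, the other imprinted genes covered in all 5 lists, the 5 of them with the most covered bases, and the 2 nearest patterns of each of the 3 most covered members. Alternatives were peaks at least 150 bp wide, lists of equal number (the widest peaks of each list), peaks within 1000 bp joined and 3 other windows. Added after seeing the data were the 5 kb upstream of any transcript start and the sums without Mest.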

Additional observations from a re-analysis of the deposited data

Results flagged for a closer look

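Mest and Igf2 were noted because their covered bases went up against the parental line in some resistant lines and down in others. For Mest the difference was 1000 bp in R100 and 650 bp in R500, against -300 bp in R1000 and -1050 bp in R4000. For Igf2 the difference was 1150 bp for R100, 1650 bp for R500 and 900 bp for R1000, against -450 bp for R4000. The covered length of the whole list moved the same way in R100 and R500 (3.09 and 2.78 times the parental length) and in R4000 (0.658 times), and was 0.988 times in R1000. With 1 list per line the difference between lines was not tested, and neither was the part of the list's length in it.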

How the results depend on the processing

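With peaks at least 150 bp wide, 0 members had more covered bases than the parental line in R4000, and 5, 12, 3 and 1 of the other imprinted genes were covered in the parental line, R100, R1000 and R4000. With lists of equal number (the widest 6820 peaks of each), 11, 8 and 5 of the other imprinted genes were covered in R100, R500 and R1000. With peaks within 1000 bp joined, 0 members had fewer covered bases than the parental line in R1000, since Mest there reversed to 250 bp above it. In the 5 kb upstream alone, 0, 1, 3, 0 and 0 members were covered in the parental line, R100, R500, R1000 and R4000. The share over all annotated genes was not computed for this or the other alternatives, so their counts have no background. Members with more covered bases there numbered 1, 3, 0 and 0 in the resistant lines, and those with fewer 0 in both R1000 and R4000. No ratio of sums to the parental line could be had there, since the parental sum was 0. In the 5 kb upstream of any transcript start, an alternative chosen after seeing the data, 1 member had more covered bases in R1000. Without Mest, the sums were 3.81, 4.62 and 2.31 times the parental sum, which is then that of Igf2 alone, in R100, R500 and R1000. No paired analysis was possible because each line has 1 list. Of the 134 recomputed counts and sums, 110 stayed within 1.5 times the count reported or within the counting interval of the ratio. That interval treats each covered bin of 50 bp as a separate count, although neighbouring bins of 1 peak are not independent. The 110 include counts that were 0 in the main setting and stayed 0. The peak lists carry no depth, so a gene at 0 bp had no called peak, which does not show that the mark was absent.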

Other observations

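Peaks also lay beyond the windows of 4 members, in the 20 kb on both sides of the gene. Upstream of Mest, a peak about 8.6 kb from the 5′ end was present in the parental line (chr6:30664851-30664900), R100 (chr6:30664851-30664950) and R500 (chr6:30664701-30664900), and R100 and R500 shared a further peak of 100 bp at chr6:30665701-30665800. R1000 had 1 peak of 50 bp between 5 and 20 kb upstream (chr6:30660251-30660300) and R4000 had none. Upstream of H19, R100 had a peak of 100 bp at chr7:149771751-149771850, which lies 7703 to 7802 bp from the start and outside the window in which R100 was at 0 bp. A further parental peak of 50 bp lay 14.7 kb upstream of Igf2, at chr7:149867401-149867450. It lies inside the annotated gene Ins2 and cannot be given to Igf2 alone. Beyond the window of Dlk1, R500 had peaks at chr12:110678951-110679050 and chr12:110718201-110718250, and R100 had one at chr12:110720401-110720500.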
